A study of Mus musculus with 8 samples.

Results

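The lost tiles are 65 stretches of 1 kb in the mouse genome where SOX9 CUT&Tag coverage was high in both uninjured spinal cords and low in both cords taken 1 day post-injury (1 dpi). They were selected on the readout itself. A tile of the fixed 1-kb grid on chromosomes 1 to 19 was taken if its coverage was at least 5 times the library's mean tile in both uninjured SOX9 libraries and at most 1 time the mean in both SOX9 libraries at 1 dpi. Of 2462755 tiles, 35384 reached 5 in both uninjured libraries, and 65 of these (0.184%) met the rule. Because the rule used the contrast between the conditions, the coverage of these tiles in the SOX9 libraries is given as a description and as support for nothing. The counts of lost tiles in a fit over all tiles, given further on, come from the same contrast and are no test of them.

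SOX9 is a transcription factor of the SRY-related HMG-box family that binds short AT-rich words in the minor groove of DNA. In the adult spinal cord it marks astrocytes and ependymal cells, and it takes part in glial fate decisions during development and in the response of astrocytes to injury. CUT&Tag tethers a transposase to an antibody-bound chromatin protein, so that DNA close to the protein is tagged and amplified, although open chromatin can also be tagged without the antibody's target.

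The study profiled spinal cord nuclei of wild-type (WT) C57BL/6 mice that entered the experiment at 8 to 12 weeks of age by the study's methods, though its sources differ on age, either uninjured or 1 day after a mid-thoracic contusion injury, and each condition had a sample from the male (M) and from the female (F) sex. Nuclei came from 5 mm of cord around the lesion, or from the same level of uninjured cords, and were sorted on 7AAD, a DNA stain. For isolation and sorting the paper refers to its earlier protocol, in which nuclei were also stained for NEUN or SOX10. Each sample gave a SOX9 library and, from 20% of its nuclei, a control that received the secondary antibody alone. The 8 libraries thus form 4 groups of 2, SOX9 uninjured, SOX9 1 dpi, control uninjured and control 1 dpi. In bulk nuclei, fewer cells of a type and less binding per cell cannot be told apart, and with 1 library per sex and condition, sex, animal and library cannot be told apart either.

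Depth set the scale of every value. Fragments numbered 1901433 in the M and 7248962 in the F library of SOX9 in uninjured tissue, against 2538725 in the M and 2396777 in the F library at 1 dpi. One fragment of average length in a tile was worth 1.35 times the mean tile in the uninjured M library, 0.348 times in the uninjured F library, 0.999 times in the M library at 1 dpi and 1.06 times in the F library at 1 dpi. The rule therefore asked for about 4 fragments in the shallowest library and for at most about 1 in each library at 1 dpi. The controls held 22848 (M) and 47049 (F) fragments in uninjured tissue and 53341 (M) and 10948 (F) at 1 dpi, so that a single fragment made a tile 47.6 to 231 times the mean.

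Over the 65 lost tiles, coverage in the uninjured M library ran from 5.01 through a median of 6.43 to 13.8 times the mean tile. In the uninjured F library it ran from 5.01 through 5.72 to 11 times. At 1 dpi it ran from 0 through 0.587 to 0.995 in the M library, with 16 tiles at 0, and from 0 through 0.547 to 0.997 in the F library, with 19 tiles at 0. The uninjured libraries were high and the libraries at 1 dpi low in every tile, as the rule fixes, and the M library was the higher of the uninjured pair in 44 of 65 tiles. The values rest on few fragments. A lost tile was touched by 3 to 11 fragments in the uninjured M library and by 10 to 33 in the uninjured F library, and by at most 4 (M) and at most 3 (F) at 1 dpi. Summed over all 65, the SOX9 libraries held 329 (M) and 1216 (F) fragments in uninjured tissue and 79 (M) and 65 (F) at 1 dpi, with exact Poisson 95% intervals of 294.4 to 366.5, 1149 to 1286, 62.6 to 98.5 and 50.2 to 82.9 that cover counting error only.

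The lost tiles sat close to the upper threshold. By the lower of the uninjured values, 45 lay between 5 and 6, 15 between 6 and 7 and 5 between 7 and 8, and of the tiles at 8 or more in both uninjured libraries, 5181 below 10 and 8653 from 10 upward, 0 were lost. The share of tiles that met the rule fell with the level, from 0.422% of those between 5 and 6 to 0.23% and 0.115% in the bins above. Just inside the upper threshold were chr3:105189001-105190000 (5.01), chr5:137310001-137311000 (5.01) and chr15:80847001-80848000 (5.03). Just outside it were chr5:124454001-124455000 (4.99), chr8:84510001-84511000 (4.98) and chr6:142399001-142400000 (4.96). On the side of the lower threshold, where the value is the higher one at 1 dpi, chr18:35739001-35740000 (0.997), chr19:42322001-42323000 (0.997) and chr15:6611001-6612000 (0.995) were just inside, and chr5:117125001-117126000 (1.005), chr5:120999001-121000000 (1.017) and chr6:99027001-99028000 (1.03) just outside. No gap separated the lost tiles from their neighbours in value, since a further 355 tiles (1.00%) at 5 or more in both uninjured libraries were at most 2, though not both at most 1, at 1 dpi. Most of the 35384 tiles, 20227 (57.2%), were at 5 or more in all 4 SOX9 libraries.

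The same rule with the conditions exchanged found 76 gained tiles among 36139 (0.210%), so that lost tiles were 0.855 times as many as gained ones (Clopper-Pearson 95% interval 0.605 to 1.21). The ratio had no stable direction, being 1.33 with the grid shifted by 500 bp and 1.53 with a trimmed mean of log ratios as the scale. It was 0.81 with each library thinned to the shallowest, and 0.832, 0.667 and 0.957 with an upper threshold of 4 and lower thresholds of 0.5 and 2. It was 1.94 without uninjured M, 2.87 without uninjured F, 0.436 without the M and 0.352 without the F library at 1 dpi. Leaving out an uninjured library drops an upper threshold for lost tiles but a lower one for gained tiles, and the reverse at 1 dpi. The values with a library left out therefore do not bear on the direction. With sex, the other labelled factor, in place of condition, 58 of 32561 tiles (0.178%) were high in both M and low in both F libraries, and 89 of 38148 (0.233%) were high in both F and low in both M libraries. The share of lost tiles lay between these shares for sex, and the differences were not tested. The number depended on how tiles were drawn. With the grid shifted by 500 bp 77 tiles met the rule, but only 10 of the 65 overlapped one of them, and with 2-kb tiles 2 met it. When each SOX9 library was thinned to the fragments of the shallowest, 277 tiles met the rule and 29 of the 65 were among them. With 1 SOX9 library left out, from 424 (without uninjured M) to 5560 (without uninjured F) tiles met it, with 985 without the M and 580 without the F library at 1 dpi. Leaving out a library drops a condition of the rule, so the count could only rise.

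Across all 297828 tiles with a mean of at least 2 times the library mean over the SOX9 libraries, limma called 9 tiles lower (0.00302%) and 58 higher at 1 dpi at an adjusted p under 0.05, and 5841 tiles were lower at an unadjusted p under 0.05 (1.96%). The balance of these calls turned with the library left out, with 63 lower and 34 higher without the M and 11 lower and 0 higher without the F library at 1 dpi, and 2 lower and 124 higher without uninjured F. All 65 lost tiles passed this filter, which they reached through the uninjured libraries alone. Of the 65, 0 were called at an adjusted p under 0.05, and 65 had an unadjusted p under 0.05, which the rule made likely and from which nothing is read. The number called was 0 to 2 of 65 across the alternatives, and nothing is read from it either. Their log2 change, on the scale of log2(relative coverage + 0.5), ran from -4.41 to -2.16 with a median of -2.9, against a median of -0.0153 over all tiles fitted, and the standard errors ran from 0.75 to 1.79.

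The lost tiles were spread over the genome. Each of the 19 chromosomes held at least 1, with 6 each on chromosomes 9 and 11 and 1 each on chromosomes 1, 12, 13 and 18. No lost tile adjoined another, and the closest pair were 745 kb apart. By GENCODE M21 annotation, 7 of 65 lay within 1 kb of a start site of a coding transcript, 13 others overlapped a coding exon, 7 another exon, 22 an intron of a coding gene and 2 an intron of a noncoding gene, and 14 were intergenic. They were described against the other 35319 tiles at 5 or more in both uninjured libraries, weighted so that their lower uninjured values fell into bins of 5 to 6, 6 to 7 and 7 to 8 in the same shares, here called tiles of like coverage. Near coding start sites lay 10.8% of the lost tiles (95% Wilson interval 5.32% to 20.6%), against 28.8% of tiles of like coverage and 48.7% of tiles high in all 4 libraries. The share was 3.49% without the uninjured F library, 17.6% without the F library at 1 dpi, and 0 with 2-kb tiles or a lower threshold of 0.5. Intergenic places took 21.5% (13.3% to 33.0%) against 11.8% of tiles of like coverage, coding exons 20.0% against 17.9%, and introns of coding genes 33.8% against 32.3%. The median distance to a coding start site was 12590 bp, against 5456 bp in tiles of like coverage and 1230 bp in tiles high in all 4 libraries. Gained tiles lay farther still, at a median of 32128.5 bp and with 2.63% near a start site.

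Lost tiles stood more alone than tiles of like coverage. Of the 65, 5 (7.69%) adjoined a tile that was high in all 4 SOX9 libraries, against 28.4% of tiles of like coverage, and the nearest such tile was a median of 15 kb away against 5 kb. In the adjoining tiles, 1 kb to either side, mean coverage was 2.88 (M) and 3.88 (F) times the mean tile in uninjured tissue and 2.66 (M) and 2.29 (F) times at 1 dpi. The libraries at 1 dpi were both below both uninjured libraries there, with means of 3.38 ± 0.707 and 2.48 ± 0.262 (SD, n = 2), a ratio of 0.734. Beside tiles of like coverage, the ratio was 0.933. From 6 to 20 kb away the ratio was 0.923 for lost tiles and 0.949 for tiles of like coverage. The values around lost tiles were 2.8 (M) and 3.69 (F) in uninjured tissue and 3.17 (M) and 2.83 (F) at 1 dpi, so the groups overlapped. These neighbouring values come from the libraries that chose the tiles and were not tested.

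The 4 lost tiles with the highest lower uninjured value came first by the rule for named tiles. The highest, chr11:119542001-119543000, overlaps coding and untranslated exon sequence of Nptx1, which encodes the secreted synaptic protein neuronal pentraxin. Its coverage was 8.22 (M) and 7.95 (F) times the mean tile in uninjured tissue and 0.877 (M) and 0.338 (F) times at 1 dpi. These values rest on 4 and 24 fragments in uninjured tissue and on 2 and 1 at 1 dpi, and the exact Poisson 95% interval of the 4 fragments is 1.09 to 10.2. The uninjured libraries were high and close together, with a mean of 8.09 ± 0.191 against 0.607 ± 0.381 at 1 dpi (SD, n = 2). The tile chr4:141136001-141137000, in an intron of Szrd1, had 8.1 (M) and 7.91 (F) in uninjured tissue and 0.263 (M) and 0.78 (F) at 1 dpi. The tile chr2:49248001-49249000, in an intron of Mbd5, a gene of the methyl-CpG-binding domain family, had 13.8 (M) and 7.36 (F) in uninjured tissue and 0 in both libraries at 1 dpi. Its uninjured libraries differed the most of these 4, by nearly the value of the lower one. The tile chr12:100403001-100404000, over a coding exon of Ttc7b, had 9.16 (M) and 7.33 (F) and again 0 in both libraries at 1 dpi. Of 65 lost tiles, 4 were at 0 in both libraries at 1 dpi, the others being chr7:99659001-99660000 over an untranslated exon of Slco2b1, an organic anion transporter, and chr13:29689001-29690000 in an intron of Cdkal1, a tRNA-modifying enzyme. The exact Poisson 95% interval of a count of 0 reaches 3.69 fragments, so it does not show that signal was absent.

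The next tiles by this order had lower uninjured values from 6.31 to 7.14. In an intron of Syngr1, a synaptic vesicle protein, chr15:80093001-80094000 had 7.14 (M) and 7.83 (F) in uninjured tissue and 0.873 (M) and 0.82 (F) at 1 dpi. In an intron of Ttc7, chr17:87366001-87367000 had 8.03 (M) and 6.99 (F), then 0.255 (M) and 0.72 (F). In both tiles all values at 1 dpi were below 0.9 and the groups lay far apart. In an intron of Qk, which encodes the RNA-binding protein quaking of myelinating glia, chr17:10253001-10254000 had 6.43 (M) and 6.49 (F), then 0.923 (M) and 0 (F). The tile chr19:45307001-45308000, in an intron of the noncoding gene Gm28578, had 6.7 (M) and 6.54 (F), then 0.904 (M) and 0.941 (F). In all of these the uninjured pair lay within about 1 mean tile of each other, and the groups did not overlap, as the rule requires. The intergenic tile chr6:12145001-12146000, 218218 bp from the start site of Phf14, had 7.96 (M) and 6.4 (F), then 0.599 (M) and 0 (F). The intergenic tile chr11:97410001-97411000, 4533 bp from that of Arhgap23, had 6.43 (M) and 6.38 (F), then 0.488 (M) and 0 (F). The last, chr15:6611001-6612000, lies in Fyb, an adaptor protein of T cells, over an exon of a noncoding transcript, and had 6.31 (M) and 7.51 (F), then 0.995 (M) and 0 (F).

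Tiles near coding start sites were few, and all 7 are given. Ric8a encodes a chaperone and exchange factor of G protein alpha subunits, and chr7:140858001-140859000 holds a start site of a coding transcript. Coverage there was 6.08 (M) and 11 (F), then 0.946 (M) and 0.925 (F), while the adjoining tiles averaged 10.6 times the mean tile in uninjured tissue and 7.83 times at 1 dpi. The tile chr9:35214001-35215000 holds a start site of Srpr, a receptor subunit of the signal recognition particle, and had 6.54 (M) and 5.42 (F), then 0.705 (M) and 0 (F). Within 1 kb of a start site of Polr2j, a subunit of RNA polymerase II, chr5:136117001-136118000 had 5.82 (M) and 6.55 (F), then 0.385 (M) and 0.812 (F). The lower uninjured value was under 6 in 6 of the 7, all but that at Ric8a. Near Herpud1, an endoplasmic reticulum stress gene, chr8:94391001-94392000 had 5.64 in both, then 0.587 (M) and 0.519 (F). Near Ncs1, a neuronal calcium sensor, chr2:31244001-31245000 had 5.48 (M) and 7.47 (F), then 0.755 (M) and 0.716 (F). Near Lman1l, chr9:57619001-57620000 had 5.25 (M) and 5.73 (F), then 0.808 (M) and 0.587 (F). The tile near Tmem173, which encodes the innate immune adaptor STING, was uneven between the uninjured libraries, with 9.82 (M) and 5.14 (F), then 0.744 (M) and 0.997 (F).

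A coding gene held 47 of the 65 lost tiles, and these were 47 different genes, so that no gene held 2. The host genes were 4.75 to 663.9 kb long, with a median of 66.5 kb. Of the 47, 44 held another tile at 5 or more in both uninjured libraries and 37 held a tile that was high in all 4. With the lost tiles left out, the mean coverage of the host gene at 1 dpi over uninjured had a median of 0.912, against 0.93 over the 10119 coding genes with a tile at 5 or more in both uninjured libraries. Both libraries at 1 dpi were below both uninjured libraries in 10 of the 47 host genes, or 21.3%, against 18.5% of all such genes, and above both in 2, or 4.26%, against 8.61%. These shares of host genes were near the background and are not a result about the lost tiles.

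Lost tiles were then counted at genes that mark cell types or processes of the cord. Of 11728 coding genes with a tile at 5 or more in both uninjured libraries in or within 10 kb of them, 81 (0.691%) had a lost tile there, and a count of 0 in a short list is to be read against that share. In or within 10 kb of the gene, a lost tile was found at 0 of 30 genes of astrocyte identity, of which 23 had a tile at 5 or more in both uninjured libraries and 21 a tile high in all 4. The count was also 0 for reactive astrocytes (9 of 23 genes with a high uninjured tile), the oligodendrocyte lineage (23 of 27), microglia and macrophages (9 of 22), ependymal cells and cilia (13 of 20), endothelial and mural cells (5 of 20), the SOX family (11 of 18), AP-1 and immediate early genes (19 of 24) and adhesion and axon guidance (28 of 38). Among neuronal and synaptic genes 1 of 29 had a lost tile, and 24 had a high uninjured tile. It was Rbfox3, which encodes the neuronal nuclear protein NeuN, within 10 kb of chr11:118479001-118480000. This tile overlaps a coding exon of the neighbouring gene Engase and had 7.27 (M) and 5.08 (F) in uninjured tissue and 0 (M) and 0.804 (F) at 1 dpi. Around Rbfox3, 63 tiles were at 5 or more in both uninjured libraries and 14 were high in all 4.

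Among ion channel genes 3 of 29 had a lost tile, and 20 had a high uninjured tile, against the 0.691% of all coding genes with such a tile. All 3 encode subunits of voltage-gated calcium channels. Cacna1b encodes the pore of N-type channels, and the tile chr2:24634001-24635000 in an intron had 5.64 (M) and 6.09 (F), then 0.37 (M) and 0.877 (F). Cacna1c encodes that of L-type channels, and chr6:118940001-118941000 in an intron had 6.11 (M) and 5.68 (F), then 0 (M) and 0.209 (F). Cacnb4 encodes an auxiliary subunit, and chr2:52461001-52462000 in an intron had 6.06 (M) and 5.5 (F), then 0.991 (M) and 0.82 (F). In or near Cacna1b, Cacna1c and Cacnb4 lay 13, 15 and 9 tiles at 5 or more in both uninjured libraries, the lost tile included. Of these, 3, 3 and 4 were high in all 4. With the lost tile left out, mean coverage of the gene at 1 dpi over uninjured was 0.767, 0.883 and 1.13, in the same order. Long genes hold more tiles, and whether these genes stand apart from others of their length was not tested.

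The lost tiles were somewhat poorer in GC than tiles of like coverage. Their median GC content was 50.7% (range 33.2% to 63.2%, order-statistics 95% interval of the median 48.8% to 51.9%), against 52.3% in tiles of like coverage, 54.7% in tiles high in all 4 libraries and 48.0% in gained tiles. GC was at least 50% in 37 of 65 (56.9%) against 68.1% of tiles of like coverage. They held a median of 12 CpG dinucleotides, against 16 in tiles of like coverage and 24 in tiles high in all 4. Motif letters were searched on both strands over the whole 1-kb tile. SOX letters (ACAAAG or ACAATG) were in 44 of 65 lost tiles (67.7%), against 67.2% of tiles of like coverage, and AP-1 letters (TGACTCA or TGAGTCA) in 11 (16.9%), against 16.8%. The NFI half-site TTGGCA was in 33 (50.8%) against 41.6%, the cyclic AMP response element TGACGTCA in 1 (1.54%) against 1.32% and the ETS letters CCGGAAG in 3 (4.62%) against 9.35%. The CCAAT box was in 51 (78.5%, 95% Wilson interval 67.0% to 86.7%) against 66.3%. The GC box GGGCGG was in 8 (12.3%, 95% Wilson interval 6.37% to 22.5%), against 34.6% of tiles of like coverage and 53.3% of tiles high in all 4, in the same direction as the small share near start sites. In a window of 201 bases at the summit of uninjured coverage, SOX letters were in 16 of 65 (24.6%, 15.8% to 36.3%) against 19.5% of windows of the same length from tiles of like coverage, and the GC box in 1 (1.54%) against 14.9%. AP-1 letters were in 1 of these windows (1.54%) against 4.15%, the NFI half-site in 11 (16.9%) against 10.1%, the ETS letters in 0 against 2.84% and the CCAAT box in 13 (20.0%) against 19.7%. The words are short, and a match is not a bound site. The separate summits of the uninjured M and F libraries lay a median of 197 bp apart in lost tiles and 193 bp apart in tiles of like coverage. They were within 100 bp of each other in 19 of 65 lost tiles (29.2%), against 31.9%.

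The sequences of the 3 highest lost tiles that stayed under the 70% repeat threshold given below are printed as examples. Each is the 201 bases around the summit of the summed uninjured coverage, moved inwards where the window would leave the tile, and read from the plus strand of GRCm38, with every match to the motifs above in capitals. The windows in Nptx1 and Ttc7b overlap coding sequence, and the one in Szrd1 lies in an intron. The Szrd1 window holds TGACGTCA, the Ttc7b window holds CATTGT, the reverse complement of the SOX letters ACAATG, and the Nptx1 window holds none of the words but ends near a run of the dinucleotide GA.
Nptx1 tile, chr11:119542548-119542748: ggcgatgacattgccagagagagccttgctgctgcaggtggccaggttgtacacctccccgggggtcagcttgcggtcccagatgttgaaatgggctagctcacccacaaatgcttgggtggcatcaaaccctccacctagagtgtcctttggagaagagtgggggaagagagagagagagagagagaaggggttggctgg
Szrd1 tile, chr4:141136497-141136697: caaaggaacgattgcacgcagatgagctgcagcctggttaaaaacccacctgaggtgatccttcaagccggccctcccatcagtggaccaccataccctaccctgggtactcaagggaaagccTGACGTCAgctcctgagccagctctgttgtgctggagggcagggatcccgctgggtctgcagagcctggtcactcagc
Ttc7b tile, chr12:100403413-100403613: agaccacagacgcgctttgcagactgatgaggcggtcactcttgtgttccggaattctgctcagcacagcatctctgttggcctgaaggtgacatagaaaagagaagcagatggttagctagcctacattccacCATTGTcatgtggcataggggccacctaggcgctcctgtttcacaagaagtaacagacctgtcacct

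Some lost tiles held tandem repeats. This was noticed in the sequences and measured afterwards, as the highest percent of equal bases when the 201-base window is laid over itself at a shift of 10 to 100 bases. At a threshold of 70%, 8 of 65 windows (12.3%, 95% Wilson interval 6.37% to 22.5%) repeated themselves, against 2.69% of windows from tiles of like coverage. Gained tiles, with the window at their summit at 1 dpi, had 8 of 76 (10.5%), so the repeats were not particular to the tiles low at 1 dpi. The median percent of equal bases was 35.3% in lost tiles and 35.8% in tiles of like coverage, so the difference lay in these 8 tiles. With each SOX9 library thinned to the shallowest, 13 of 277 tiles (4.69%) had such a window, and with the lower threshold at 0.5, 4 of 16 (25%). With any 1 SOX9 library left out the share was 2.73% to 9.14%, the lowest without the uninjured F library.

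The repeated tiles were higher in the uninjured M library than the other lost tiles. Their coverage there ran from 6.31 through a median of 9.65 to 13.8 times the mean tile, against 5.01 through 6.3 to 10.7 in the other 57. In the uninjured F library the medians were 5.85 and 5.72, and the M library was above the F library in 7 of 8 repeated tiles and in 37 of the other 57. At 1 dpi the medians of the repeated tiles were 0.162 (M) and 0 (F), against 0.587 (M) and 0.607 (F) in the others. After Mbd5, the highest was the Cdkal1 tile, with 12.9 (M) and 6.25 (F) in uninjured tissue and 0 in both libraries at 1 dpi. The Ulk4 tile had 10.3 (M) and 5.2 (F), then 0.801 (M) and 0 (F). The tile near Ect2 had 9.78 (M) and 5.6 (F), then 0.667 (M) and 0 (F), and 96.3% of its bases are soft-masked. In each of these the M library led among the uninjured and the F library was at 0 at 1 dpi. The Cnst tile had 9.52 (M) and 5.14 (F), then 0 (M) and 0.294 (F). The tile far from Kcna5, a potassium channel gene, had 8.16 (M) and 5.06 (F), then 0 (M) and 0.277 (F). The tile in Sacm1l, a phosphoinositide phosphatase, had 7.06 (M) and 6.1 (F), then 0.324 (M) and 0.647 (F). How reads were placed in such repeats was not tested.

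The repeated windows are printed to show the units. The unit length is the smallest shift within 5 points of the best, the capitals mark the first stretch of that length, which need not end where a copy ends, and all windows are from the plus strand of GRCm38. None overlaps an exon. The units are 26 bases in Mbd5, 35 in Cdkal1, 20 in Ulk4, 32 in Sacm1l, 20 in Cnst and 87 in Fyb, and 32 near Ect2 and 27 in the tile whose nearest coding start site is that of Kcna5, 100412 bp away. The windows equal themselves at 85.7%, 83.1%, 81.2%, 84.6%, 99.0%, 100%, 97.6% and 99.4% of bases, in the same order.
Mbd5 intron, chr2:49248001-49248201: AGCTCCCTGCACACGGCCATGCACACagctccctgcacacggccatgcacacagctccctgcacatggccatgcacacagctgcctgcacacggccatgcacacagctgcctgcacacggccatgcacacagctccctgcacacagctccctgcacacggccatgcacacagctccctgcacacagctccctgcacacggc
Cdkal1 intron, chr13:29689564-29689764: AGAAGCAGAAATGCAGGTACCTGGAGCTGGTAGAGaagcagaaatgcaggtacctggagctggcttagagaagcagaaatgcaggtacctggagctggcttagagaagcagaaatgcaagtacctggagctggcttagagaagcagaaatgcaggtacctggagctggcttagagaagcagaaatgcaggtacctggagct
Ulk4 intron, chr9:121131592-121131792: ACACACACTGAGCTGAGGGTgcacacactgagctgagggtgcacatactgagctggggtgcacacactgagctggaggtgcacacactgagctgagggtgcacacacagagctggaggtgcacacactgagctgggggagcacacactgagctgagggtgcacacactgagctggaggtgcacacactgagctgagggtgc
Sacm1l intron, chr9:123559741-123559941: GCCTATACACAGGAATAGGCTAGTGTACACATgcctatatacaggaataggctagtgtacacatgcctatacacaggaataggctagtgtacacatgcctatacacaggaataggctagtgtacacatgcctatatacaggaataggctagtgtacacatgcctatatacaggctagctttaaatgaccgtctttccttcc
Cnst intron, chr1:179602800-179603000: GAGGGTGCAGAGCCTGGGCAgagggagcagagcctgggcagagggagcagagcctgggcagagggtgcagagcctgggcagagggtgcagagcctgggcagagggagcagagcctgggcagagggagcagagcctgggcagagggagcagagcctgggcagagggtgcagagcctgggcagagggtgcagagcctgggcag
Fyb intron, chr15:6611094-6611294: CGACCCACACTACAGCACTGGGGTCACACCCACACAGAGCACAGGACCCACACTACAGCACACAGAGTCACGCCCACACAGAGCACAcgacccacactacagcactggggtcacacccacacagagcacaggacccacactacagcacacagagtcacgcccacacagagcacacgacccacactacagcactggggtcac
intergenic near Ect2, chr3:27158321-27158521: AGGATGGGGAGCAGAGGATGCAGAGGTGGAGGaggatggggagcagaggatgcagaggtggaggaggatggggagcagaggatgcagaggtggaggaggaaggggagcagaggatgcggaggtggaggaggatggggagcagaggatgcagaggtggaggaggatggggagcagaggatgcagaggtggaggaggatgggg
intergenic, far from Kcna5, chr6:126434692-126434892: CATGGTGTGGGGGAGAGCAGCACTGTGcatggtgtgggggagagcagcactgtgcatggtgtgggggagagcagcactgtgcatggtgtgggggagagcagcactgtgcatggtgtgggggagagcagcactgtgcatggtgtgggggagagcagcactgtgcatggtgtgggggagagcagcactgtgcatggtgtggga

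The secondary-only controls are the libraries that the rule did not use. Over the 65 lost tiles, mean coverage was 9.23 (M) and 6.23 (F) times the mean tile in uninjured controls and 4.71 (M) and 1.85 (F) times in controls at 1 dpi. Both uninjured controls were above both controls at 1 dpi, with means of 7.73 ± 2.12 and 3.28 ± 2.02 (SD, n = 2). A two-sided exact permutation test returned p = 0.333 (n = 2 per condition), the smallest p this design allows. The order of the controls did not hold throughout. With the tiles chosen without the M library at 1 dpi, coverage was 5.28 (M) and 5.67 (F) in uninjured controls and 4.62 (M) and 6.14 (F) at 1 dpi, and with an upper threshold of 4 it was 5.42 (M) and 3.99 (F), then 2.59 (M) and 4.78 (F), so that the groups overlapped. They also overlapped with the tiles chosen without uninjured M, at 3.26 (M) and 2.6 (F), then 2.88 (M) and 2.43 (F). With 2-kb tiles, and with a lower threshold of 0.5, the uninjured M control and both controls at 1 dpi were at 0. The values over the 65 lost tiles rest on 6 (M) and 10 (F) fragments in uninjured controls and 6 (M) and 1 (F) at 1 dpi, with exact Poisson 95% intervals of 2.202 to 13.06, 4.795 to 18.39, 2.202 to 13.06 and 0.0253 to 5.57. In tiles of like coverage the controls had 7.56 (M) and 7.02 (F) times the mean in uninjured tissue and 6.62 (M) and 7.27 (F) times at 1 dpi. The controls are not independent of the SOX9 libraries. Of their 23 fragments in the lost tiles, 21 began and ended at positions where a fragment of a SOX9 library also began and ended, 15 of them in the uninjured F library. Between the uninjured SOX9 libraries themselves, 12 of 329 M fragments (3.65%) shared both ends with F fragments. The controls are thus no separate readout of these tiles, and the source of the shared ends was not tested.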

How the data were processed

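Coverage was deposited by the authors as whole-number stretches per library, not scaled for depth. Per the submitters' processing notes and the study's methods, reads were mapped to mm10 with Bowtie2 2.5.4 and duplicates removed with Picard 3.4.0. SEACR 1.3 is also named there, and its peaks were not used here. The step that wrote the coverage is not given in the sources used here. From the stretches, fragments were rebuilt by pairing starts and ends of coverage in order. Coverage was summed in 1-kb tiles and divided by the library's mean tile over chromosomes 1 to 19. Places came from GENCODE M21 and sequence from GRCm38.p6. Calls used limma 3.58.1 (R 4.3.3) on log2(relative coverage + 0.5) with a mean-variance trend and Benjamini-Hochberg adjustment, on the SOX9 libraries only, because the controls are far shallower. The limma fit was tested on simulated data. The fit recovered planted changes in deeper simulated libraries but almost none at the depth of these, so a lack of calls does not show that tiles did not differ. Counts and intervals came from scipy 1.17.1 and pandas 2.3.3 in Python 3.11.15, and genome sequence was read with pysam 0.24.0. Poisson, Wilson and Clopper-Pearson intervals are at 95% and cover counting error only. P-values refer to these libraries only, in which sex, animal and library cannot be told apart. Tiles named are the 12 with the highest lower uninjured value, up to 8 more by that value near coding start sites, those in or within 10 kb of genes of 11 lists, and the 3 just inside and outside each threshold. Of the first 12, 1 tile is not reported here. Tandem-repeat tiles, and the tile at 0 in both libraries at 1 dpi in Slco2b1, were named after their values were seen. The members and lists were chosen with earlier results of these data known. Alternatives covered the scale, grid, tile size, depth, thresholds, distance to start sites, repeat threshold, limma settings and each library left out.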

Additional observations from a re-analysis of the deposited data

How the results depend on the processing

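Of 83 alternative values, 35 moved by over 1.5 times (counts) or out of the main value's 95% interval (shares, ratio and median). The other 48 did not, but the intervals are wide, and of the control difference, 16 of the 48, the direction alone was judged. The 65 lost tiles became 2 with 2-kb tiles, 277 after thinning each SOX9 library to 1824332 fragments, 16 and 420 with the lower threshold at 0.5 and 2, and 293 and 0 with the upper threshold at 4 and 8. With 0 tiles, an upper threshold of 8 gave no other value. With 1 library left out the count, which could then only rise, ran from 424 (without uninjured M) to 5560 (without uninjured F). It was 985 without the M and 580 without the F library at 1 dpi. A shifted grid gave 77 and a trimmed mean of log ratios 89, and these shared 10 and 50 of the 65. The ratio of lost to gained tiles, 0.855, became 0.222 with 2-kb tiles, 1.33 with the shifted grid and 1.53 with the trimmed mean, on both sides of 1. It ran from 0.352 (without 1 dpi F) to 2.87 (without uninjured F), but with a library left out the rule is unequal for lost and gained tiles. The share near coding start sites, 10.8%, was 0 with 2-kb tiles and with the lower threshold at 0.5, 35.4% within 5 kb, and 3.49% to 17.6% with 1 library left out. Median GC, 50.7%, was 48.7% after thinning and 44.8% to 51.4% with 1 library left out. Repeated windows, 12.3%, were 0 with 2-kb tiles, 4.69% after thinning, 25.0% with the lower threshold at 0.5, and 2.73% to 9.14% with 1 library left out. The control difference in coverage, -4.45, was -4.05 to -1.02 under other scales, grids, depths and thresholds, and -5.95 to -2.95 with a control left out. As a share of fragments it was -0.0135 percentage points. With the tiles chosen without a SOX9 library, tried after seeing the data, it was -0.275 (without uninjured M), -0.515 (uninjured F), -0.095 (1 dpi M) and -0.85 (1 dpi F). Exact permutation p ran from 0.333 to 1, with no test where a control was left out. The cause of these shifts was not tested.

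The 67 tiles called by limma became 44 with a filter at a mean of 1, 37 with a pseudocount of 2, 24 with the trimmed mean, and 0 with all 8 libraries, where 39985 had an unadjusted p under 0.05. With 1 library left out they ran from 9 (without uninjured M) to 126 (without uninjured F), with 97 without the M and 11 without the F library at 1 dpi. The lone library of a condition is then assumed to vary like the pair. Sex as a replicate block gave 25 calls. M and F libraries are matched across conditions by sex alone. The differences between M and F in uninjured tissue and at 1 dpi had a correlation of -0.0403 over 297828 tiles. With few fragments per tile, this value does not show whether sex had an effect. The cause of these shifts was not tested, and few fragments per tile limit every count.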

Other observations

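Chromosome X held 255 tiles at 5 or more in both uninjured SOX9 libraries, and 0 of them met the rule for lost tiles, against 0.184% on chromosomes 1 to 19. Chromosome Y took 1.11% (M) and 0.0983% (F) of coverage in the uninjured SOX9 libraries and 0.63% (M) and 0.142% (F) of it at 1 dpi. In the controls it took 0.202% (M) and 0.218% (F) in uninjured tissue and 0.267% (M) and 0.129% (F) at 1 dpi. The M libraries were above the F libraries with SOX9, and the sexes overlapped in the controls.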
